A study of Homo sapiens with 5 samples.

Results

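The PIM kinases are a family of 3 serine/threonine kinases encoded by *PIM1*, *PIM2*, and *PIM3*. Their mRNA levels are described here in TF-1 cells, a human AML cell line, with and without knockout of *MTSS1*. The 3 genes were found by symbol in a count table of 27328 Ensembl genes, and all 3 passed the filter on low counts that left 14391 genes. They were selected on their measured change, the log2-fold change between knockout and control pools, in these same libraries. Their levels and fold changes are therefore given as a description, without a test.

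All cells carried Cas9 and an sgRNA introduced by lentiviral transduction and were grown with GM-CSF, the cytokine on which TF-1 cells depend. The 2 control libraries came from the sgCtrl pools 1 and 2, whose sgRNA is directed against *Renilla luciferase*, a gene that human cells lack. The 3 knockout libraries came from the pools sgMTSS1_1, sgMTSS1_2, and sgMTSS1_3, each made with a different sgRNA against *MTSS1*, and each of the 5 libraries was made from a pool of 4 single-cell clones. Replicates are thus pools of clones from a single cell line. The authors removed sgCtrl pool 3 and sgMTSS1_4 as outliers, and neither was analysed here.

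PIM kinases are active as soon as they are made. Unlike most kinases, they need no phosphorylation by an upstream kinase, so that the amount of protein, and with it transcription, mRNA stability, and protein turnover, sets their activity. In hematopoietic cells, cytokines such as GM-CSF, IL-3, and erythropoietin induce *PIM1* and *PIM2* through JAK2 and STAT5. The kinases phosphorylate BAD, cell cycle inhibitors, and regulators of cap-dependent translation, and they share many substrates with AKT. *PIM1* was found as a proviral integration site in murine lymphomas, and *PIM2* is known for its role in survival and translation in hematologic malignancies.

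The genes lie on different chromosomes. In GENCODE annotation of GRCh38, *PIM1* (ENSG00000137193) lies on the plus strand of chromosome 6 from 37170152 to 37175428, *PIM2* (ENSG00000102096) on the minus strand of chromosome X from 48913182 to 48919024, and *PIM3* (ENSG00000198355) on the plus strand of chromosome 22 from 49960768 to 49964072. The canonical transcript of each has 6 exons. No other gene in the count table overlaps any of them, and the annotation has no pseudogene with a PIM symbol. The microRNA gene *MIR6821* lies within *PIM3* on the same strand and has no row of counts here. The promoters are shown because the 3 genes were all higher in the knockout while their promoters differ. Each is the RefSeq stretch (GRCh38.p14) from 250 bases before to 50 bases after the annotated start, written 5′ to 3′ on the strand of the gene. The *PIM1* promoter covers chr6:37169902-37170201, the *PIM2* promoter chrX:48918975-48919274, and the *PIM3* promoter chr22:49960522-49960821. Capitals mark matches on either strand to the octamer (ATGCAAAT), the CCAAT box, and the GC box (GGGCGG).
PIM1: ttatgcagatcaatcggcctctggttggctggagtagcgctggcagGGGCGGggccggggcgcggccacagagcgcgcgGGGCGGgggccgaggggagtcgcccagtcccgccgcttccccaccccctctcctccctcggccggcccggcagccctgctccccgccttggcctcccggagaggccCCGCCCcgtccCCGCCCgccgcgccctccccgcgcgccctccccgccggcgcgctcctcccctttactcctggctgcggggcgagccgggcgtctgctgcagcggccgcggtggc
PIM2: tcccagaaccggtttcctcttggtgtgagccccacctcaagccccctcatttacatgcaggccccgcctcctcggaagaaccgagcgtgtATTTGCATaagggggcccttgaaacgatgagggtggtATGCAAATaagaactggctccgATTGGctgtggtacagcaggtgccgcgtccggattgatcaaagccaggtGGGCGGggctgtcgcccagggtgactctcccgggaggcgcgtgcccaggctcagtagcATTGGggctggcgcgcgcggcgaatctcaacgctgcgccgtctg
PIM3: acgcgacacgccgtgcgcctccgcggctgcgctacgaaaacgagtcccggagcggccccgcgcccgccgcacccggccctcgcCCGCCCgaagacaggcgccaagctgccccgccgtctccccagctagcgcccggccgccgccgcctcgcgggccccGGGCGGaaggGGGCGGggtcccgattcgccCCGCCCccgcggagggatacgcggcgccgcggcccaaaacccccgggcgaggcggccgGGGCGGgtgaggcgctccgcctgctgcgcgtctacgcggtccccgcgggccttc

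The *PIM1* and *PIM3* promoters were GC-rich, with 79.7% and 81.3% G and C, above 97.1% and 98.4% of the 35116 RefSeq promoters of the same length. The *PIM2* promoter had 62.3%, above 59.5% of them. GC boxes matched at 4 places in *PIM1*, 5 in *PIM3*, and 1 in *PIM2*, a motif found in 45.0% of all promoters. The octamer, the motif bound by POU factors, matched at 2 places in *PIM2*, from −160 to −153 and from −123 to −116 relative to the start, and nowhere in *PIM1* or *PIM3*. It is present in 1.77% of all promoters. *PIM2* also had 2 CCAAT boxes, a motif found in 34.6% of promoters. The octamer, CCAAT box, GC box, and TATA box were added to the search after the *PIM2* sequence had been seen. The palindrome TTCNNNGAA, bound by STAT proteins, had no match in any of the 3 windows (7.66% of all promoters hold it), nor had the CArG box bound by SRF (1.29%), the E-box CACGTG (7.26%), the AP-1 motif TGACTCA (4.95%), or TATAAA (11.5%). A motif absent from these 300 bases may lie outside them.

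In every knockout pool, each of the PIM mRNAs was above its level in both control pools. Levels are given as CPM, deposited read counts put on a common library scale with TMM factors. Libraries were made with a QuantSeq 3′ kit, in which a transcript gives reads from its 3′ end, so that CPM were compared between genes without division by transcript length.

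*PIM2*, whose product favors survival and cap-dependent translation, was at 54.7 and 82.2 CPM in control pools 1 and 2. In the knockout it was at 729, 647, and 803 CPM in pools sgMTSS1_1, sgMTSS1_2, and sgMTSS1_3. It was the most abundant PIM mRNA in each of the 5 libraries, and its knockout pools lay within a 1.24-fold range. The means were 68.5 ± 19.5 CPM (SD, n = 2) in the control and 726 ± 78.1 CPM (SD, n = 3) in the knockout pools, a 10.6-fold difference. The lowest knockout pool was 7.87 times the highest control pool. On the log2 scale the fitted change was 3.41 (SE, standard error, 0.38).

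*PIM3*, known from cancers of the liver and pancreas, was the lowest of the 3 in the control. It was at 18.4 and 15.8 CPM in the control pools and at 181, 246, and 276 CPM in the knockout pools. The control pools lay close together and sgMTSS1_1 was the lowest of the knockout pools. The means were 17.1 ± 1.88 CPM (SD, n = 2) and 235 ± 48.4 CPM (SD, n = 3), a 13.7-fold difference, with the lowest knockout pool 9.84 times the highest control pool. Its log2-fold change of 3.77 (SE 0.37) was the largest of the family.

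*PIM1*, the founding member and a target of cytokine signaling, was at 47.2 and 26.2 CPM in the control pools and at 201, 96.8, and 126 CPM in the knockout pools. Here sgMTSS1_1 was the highest of the knockout pools, and the control pools differed 1.80-fold. The groups did not overlap, but the lowest knockout pool, sgMTSS1_2, was only 2.05 times the highest control pool. The means were 36.7 ± 14.8 CPM (SD, n = 2) and 141 ± 53.8 CPM (SD, n = 3), a 3.85-fold difference and a log2-fold change of 1.94 (SE 0.42). Leaving out control pool 2, sgMTSS1_1, or sgMTSS1_3 gave *PIM1* log2-fold changes of 1.61, 1.59, and 2.07.

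**Figure D1:**
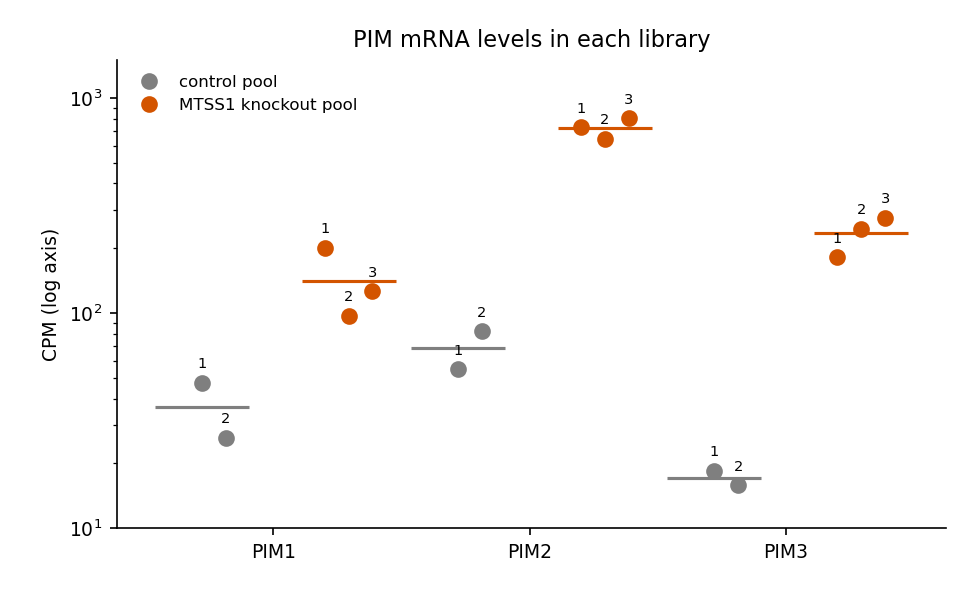
CPM of each PIM gene in the 2 control (gray) and 3 *MTSS1* knockout pools (orange) on a log axis. Numbers give the pool and horizontal lines the group means. All knockout pools lie above both control pools, with the narrowest gap for *PIM1*.

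A gene was called differentially expressed when the quasi-likelihood test of edgeR gave an adjusted p-value (Benjamini-Hochberg) under 0.05 and its level changed by more than 1 on the log2 scale. Of 14391 tested genes, 745 (5.18%) met both criteria, 600 (4.17%) higher and 145 (1.01%) lower in the knockout. All 3 PIM genes were among the higher ones, which their selection implies and which is no test of them. *PIM1* was not among the called genes when control pool 2, sgMTSS1_1, or sgMTSS1_3 was left out. Every knockout pool was above both control pools for 3191 tested genes (22.2%), and below for 2767 (19.2%). Ordered by log2-fold change from the highest, *PIM3* was at position 94, *PIM2* at 144, and *PIM1* at 695 of the tested genes. The mean level of *PIM2* was above that of 81.8% of the tested genes in the control and of 98.8% in the knockout, that of *PIM3* above 53.5% and 94.8%, and that of *PIM1* above 70.1% and 90.7%. The biological coefficient of variation fitted by edgeR was 32.3% for *PIM1*, 27.6% for *PIM2*, and 26.9% for *PIM3* (median of all tested genes, 30.7%). The fit draws each gene's value toward those of other genes, so the spread observed between pools is given by the SDs above.

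The libraries differed in ways that moved with the groups. Total counts were 2849979 and 3408827 in the control and 5442639 to 8854899 in the knockout libraries, so that depth went with the groups, and the log2-fold changes of *PIM1*, *PIM2*, and *PIM3* were 1.90, 3.37, and 3.72 when all libraries were thinned to the smallest total. Ribosomal protein genes took 7.56 and 9.31% of the counts in the control and 11.9 to 17.8% in the knockout libraries, with the highest share in sgMTSS1_1, and mitochondrially encoded genes took 8.63 to 13.9% and 6.71 to 7.44%. The part of either in the PIM levels was not tested. *MTSS1* mRNA was at 204 and 87.9 CPM in the control and at 104, 139, and 49.9 CPM in the knockout pools, so the groups overlapped (log2-fold change −0.58, SE 0.47, adjusted p = 0.494 by the edgeR test) and the labels could not be checked by it. The authors tested the clones for MTSS1 protein by immunoblot, which was not analysed here. The 10 markers of erythroid and myeloid progenitors summed to 1506 to 1694 CPM in control and 1499 to 1869 CPM in knockout pools. Of them, 6 had positive and 4 negative log2-fold changes (−0.56 to 1.17), so the similar sums do not show that the single markers were unchanged. Markers of T cells, B cells, epithelium, and fibroblasts summed to at most 11.6 CPM in any library, and the highest of these, those of B cells, lay at 7.82 to 11.6 CPM in control and 3.24 to 4.15 CPM in knockout pools. In pooled clones, fewer cells with an mRNA and less of it per cell cannot be told apart.

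Taken as a sum, the 3 mRNAs gave 120 and 124 CPM in the control and 1112, 989.5, and 1205 CPM in the knockout pools. The control pools, which differed in each single gene, nearly coincided in the sum. The means were 122 ± 2.75 CPM (SD, n = 2) and 1102 ± 108 CPM (SD, n = 3), a 9.01-fold difference. As a share of all counts, PIM reads were 0.0135 and 0.0122% in the control libraries, against 0.0968, 0.101, and 0.119% with *MTSS1* knockout.

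The makeup of this sum also differed between libraries. *PIM2* gave 65.6% of the PIM counts in sgMTSS1_1 (95% Wilson interval 64.6 to 66.6), 65.4% in sgMTSS1_2 (64.1 to 66.6), and 66.6% in sgMTSS1_3 (65.5 to 67.7). The knockout pools were thus alike in this share. Control pool 2 had 66.2% (61.5 to 70.6), close to the knockout pools, and control pool 1 had 45.5% (40.5 to 50.5). *PIM1* made up 39.2% (34.5 to 44.2) in control pool 1 and 21.1% (17.5 to 25.3) in control pool 2, and 18.1% (17.3 to 18.9), 9.78% (9.02 to 10.6), and 10.4% (9.75 to 11.2) in the knockout pools. Its share was thus lower in each knockout pool than in either control pool, although the intervals of sgMTSS1_1 and control pool 2 overlapped. *PIM3* had 15.3% (12.1 to 19.3) and 12.7% (9.85 to 16.2) in the control, 16.3% (15.6 to 17.1) in sgMTSS1_1, 24.8% (23.7 to 25.99) in sgMTSS1_2, and 22.9% (21.9 to 23.9) in sgMTSS1_3. These intervals take in counting error alone and not the spread between pools. The handling of duplicate reads is not given in the sources used here, so the intervals may be too narrow.

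The order of the levels followed from this. In both control pools and in sgMTSS1_1 it was *PIM2*, *PIM1*, *PIM3*, while in sgMTSS1_2 and sgMTSS1_3 *PIM3* was above *PIM1*, at 2.54 and 2.19 times its level. The ranges of the 3 genes did not overlap within the control. In the knockout, those of *PIM1* (96.8 to 201 CPM) and *PIM3* (181 to 276 CPM) overlapped, so that these neighbors in the order did not differ beyond their spread, and *PIM2* was above both.

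**Figure D2:**
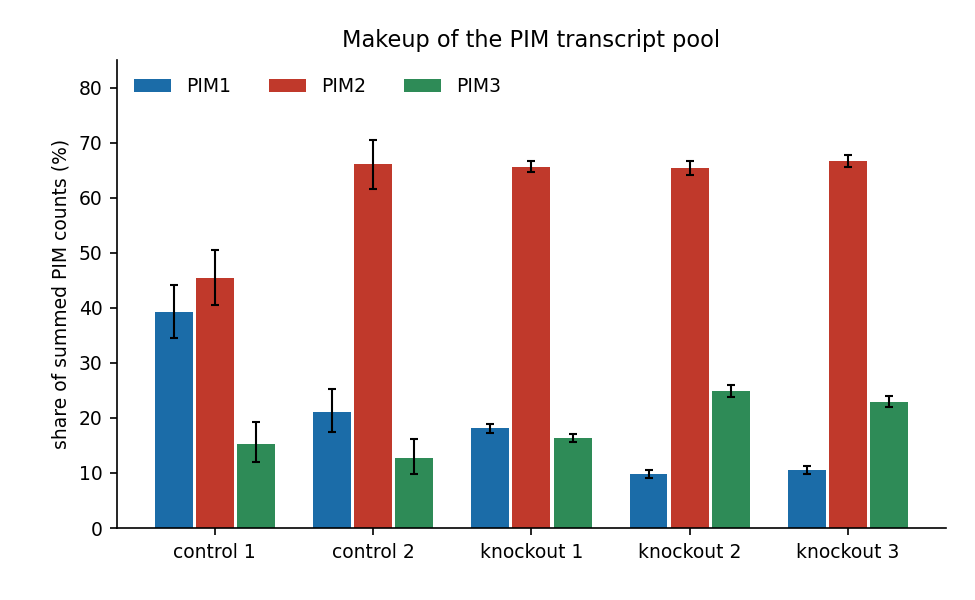
Share of the summed PIM counts (%) that *PIM1*, *PIM2*, and *PIM3* contributed in each library, with 95% Wilson intervals as error bars. *PIM2* contributed between 65.4 and 66.6% in the knockout pools, and *PIM1* was below *PIM3* in knockout pools 2 and 3 only.

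Over the 5 libraries, the profile of *PIM2* was closer to that of *PIM3* than to that of *PIM1*. Profiles were compared by the root mean square difference of log2 CPM, each centered on the gene's own mean, over 8623 tested genes with a mean of at least 10 CPM. They were not scaled, so the difference largely reflects the size of the knockout change, on which the PIM genes were selected. Likeness is thus a description and no result separate from that change. *PIM2* and *PIM3* differed by 0.36 on this log2 scale. *PIM2* was at position 9 among the genes most like *PIM3*, and *PIM3* at position 21 among those most like *PIM2*. *PIM1* differed from *PIM2* by 0.92 and from *PIM3* by 1.04.

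The genes most like *PIM1* were *RPLP0* (difference 0.071), which encodes a stalk protein of the large ribosomal subunit, *RPL27* (0.073), a ribosomal protein gene, and *ATP6V1E1* (0.084), a subunit gene of the vacuolar ATPase. *RPLP0* was at 267 and 153 CPM in the control and at 1280, 536, and 717 CPM in the knockout pools. As for *PIM1*, sgMTSS1_1 was the highest and control pool 2 the lowest library. The genes most like *PIM2* were *HSF2* (0.187), a heat shock factor gene, *RSAD1* (0.189), and *RPL6P25* (0.206), a processed ribosomal protein pseudogene. *HSF2* was at 15.3 and 22.4 CPM in the control and at 146, 163, and 180 CPM in the knockout pools, which lay close together, as did those of *PIM2*. The genes most like *PIM3* were *PIGW* (0.101), an enzyme gene of GPI anchor synthesis, *SRF* (0.218), the serum response factor gene, and *SCARNA9* (0.224), a small Cajal body RNA. *PIGW* was at 8.13 and 6.56 CPM in the control and at 70.0, 91.4, and 110 CPM in the knockout pools, with sgMTSS1_1 the lowest of these, as for *PIM3*. It reached the required mean of 10 CPM only through the knockout pools. So did *SCARNA9*, at 2.50 and 2.09 CPM in the control pools, and *RPL6P25*, at 2.19 and 3.87 CPM. The filter thus favored genes that are high in the knockout. The depth and composition of a library act on all genes counted in it. *RPLP0*, *RPL27*, and *ATP6V1E1* have 12, 6, and 3 pseudogenes named after them. *PIGW* overlaps *MYO19* on the opposite strand and *SCARNA9* lies within *CEP295*. The counts of these 5 genes are thus uncertain.

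**Figure D3:**
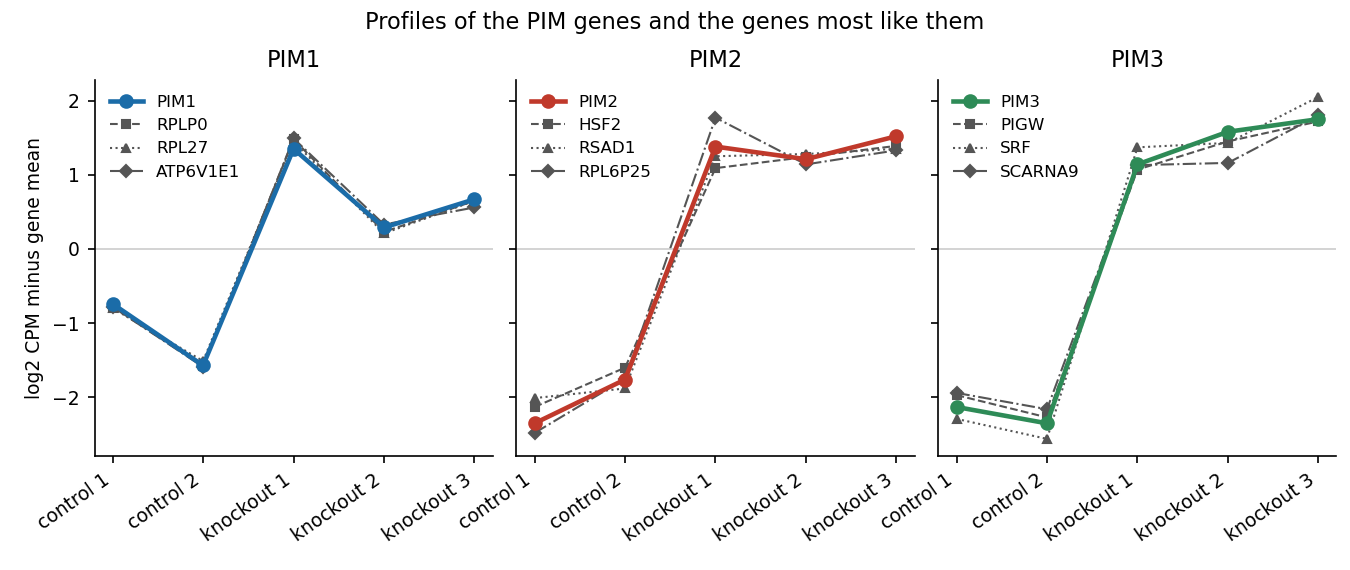
Log2 CPM (prior count of 2) of each PIM gene and of the 3 tested genes most like it, minus the gene's mean over the 5 libraries. Lines only join the values of a gene. *PIM1* was highest in knockout pool 1 (1.35), whereas *PIM3* was lowest there among the knockout pools (1.14) and *PIM2* was nearly level over them (1.21 to 1.52).

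The genes that act with the PIM kinases were examined next, in 7 lists with 123 distinct tested genes, to describe whether the change of the PIM mRNAs was shared by their inducers, co-induced genes, or substrates. Of these genes, 3 passed both criteria, *MCL1*, *CBX3*, and *MLST8*, all higher in the knockout, beside 5.18% of all tested genes that passed in either direction. Over all tested genes, 3359 (23.3%) had an unadjusted p-value under 0.05, DESeq2 called 1343 (9.33%), and the median log2-fold change was −0.03. The shares in the lists are to be read against these.

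Upstream of the PIM genes, 0 of 16 tested cytokine receptor and JAK-STAT genes passed, with 2 at an unadjusted p-value under 0.05 and 0 called by DESeq2. Their median log2-fold change was −0.08 (range −0.79 to 0.71). *CSF2RA*, which encodes the ligand-binding chain of the GM-CSF receptor, was at 6.57 and 5.36 CPM in the control and at 6.36, 4.87, and 6.44 CPM in the knockout pools, and the groups overlapped (log2-fold change −0.01, adjusted p = 0.989 by the edgeR test). It lies in the pseudoautosomal region, where removal of reads that map to both sex chromosomes may have lowered its counts. *CSF2RB*, the common beta chain that signals for GM-CSF and IL-3, had a log2-fold change of 0.43 (SE 0.33, adjusted p = 0.471 by the same test). For *JAK2*, the kinase bound to that chain, it was −0.14 (SE 0.29, adjusted p = 0.822). *STAT5A* was at 125 and 327 CPM in the control and at 228, 296, and 261 CPM in the knockout pools, a change of 0.21 (SE 0.41, adjusted p = 0.796) with overlapping groups. *STAT5B*, the other gene for the transcription factor that induces *PIM1*, was lower in each knockout pool than in both control pools, with 78.8 and 114 CPM against 41.6, 78.2, and 57.9 CPM. Its log2-fold change of −0.70 (SE 0.34) did not pass, with an adjusted p of 0.254 by the same test. The gap between the groups was narrow, with sgMTSS1_2 at 78.2 CPM and control pool 1 at 78.8 CPM. In this list every knockout pool was above both control pools for 2 genes and below for 3. The shares over all tested genes were 22.2% and 19.2%. *STAT5A* and *STAT5B* overlap on opposite strands, and the use of strand in counting is not given in the sources used here. Of the other abundant members, *PTPN11*, a phosphatase of cytokine signaling, had a log2-fold change of −0.29, and *JAK1*, a receptor kinase, of −0.69 (adjusted p = 0.618 and 0.20).

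Among 11 tested genes that STAT5 is also known to induce, 1 passed, with 5 at an unadjusted p-value under 0.05 and 3 called by DESeq2. *MCL1*, an anti-apoptotic BCL2 family gene, was at 51.6 and 50.4 CPM in the control and at 158, 130, and 183 CPM in the knockout pools. All knockout pools were above both control pools, with a log2-fold change of 1.62 (SE 0.31, adjusted p = 0.0218 by the edgeR test). The call was lost without sgMTSS1_1 (adjusted p = 0.0683) or sgMTSS1_3 (0.0813), and adjusted p-values ranged from 0.000112 to 0.0813 over the settings. *MCL1* overlaps other annotated genes on both strands, so its count is uncertain. The median of the list was 0.34, with 6 positive and 5 negative values from −1.56 to 2.22. Every knockout pool was above both control pools for 5 of its genes and below for 2, beside 22.2% and 19.2% of all tested genes. The abundant cyclin genes *CCND2* and *CCND3*, which drive entry into the cell cycle, had log2-fold changes of 0.34 and −0.07, and *ID1*, an inhibitor of basic helix-loop-helix factors, of 1.09 (adjusted p = 0.543, 0.932, and 0.153). The feedback inhibitor gene *CISH*, named here with its value known because it is a direct STAT5 target, was above both control pools in each knockout pool, with a change of 0.76 that did not pass (SE 0.31, adjusted p = 0.181). *SOCS1*, at the upper end, was at 0 to 2.96 CPM, near the floor of 3 counts (0.389 to 0.938 CPM), with a log2-fold change of 2.22 (SE 1.0). *BCL2L1*, the BCL-XL gene, at the lower end (−1.56), had overlapping groups and was called by DESeq2. *SOCS1* and *BCL2L1* are named after their values were seen.

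Of 26 tested genes whose products PIM kinases are known to phosphorylate, 1 passed, with 7 at an unadjusted p-value under 0.05 and 3 called by DESeq2. *CBX3*, which encodes heterochromatin protein HP1 gamma, was at 484 and 635 CPM in the control and at 2022, 1553, and 1358 CPM in the knockout pools. Its log2-fold change was 1.56 (SE 0.37, adjusted p = 0.0438 by the edgeR test), close to the threshold. It was not called in 6 of 14 alternative settings, among them those without control pool 1 (adjusted p = 0.0559), sgMTSS1_1 (0.113), sgMTSS1_2 (0.112), or sgMTSS1_3 (0.132, the highest, with 0.000396 the lowest over the settings), and its 10 named pseudogenes and the overlap with *HNRNPA2B1* make its count uncertain. *MYC*, the product of which is stabilized by PIM kinases and cooperates with them in lymphoma models, is in both this list and that of STAT5-induced genes and is named after its value was seen. It was at 90.4 and 61.7 CPM in the control and at 43.2, 35.6, and 34.3 CPM in the knockout pools, all below both control pools, with a log2-fold change of −1.01 (SE 0.30) that did not pass (adjusted p = 0.0847 by the edgeR test) and that DESeq2 called. *MYC* overlaps *CASC11* on the opposite strand. DESeq2 also called the phosphatase gene *CDC25A* (1.07), a driver of the cell cycle, likewise named after its value was seen. The median of the substrates was −0.03, that of all tested genes, with 12 positive and 14 negative values. *MYB*, a transcription factor gene of progenitors, *SND1*, a coactivator gene, and *EIF4B*, a translation initiation factor gene, had log2-fold changes of −0.29, −0.79, and −0.44 (adjusted p = 0.595, 0.227, and 0.379). Each of these was lower in all knockout pools than in both control pools without passing the test. Of the 26 substrates, 8 were above both control pools in every knockout pool and 8 were below. The shares over all tested genes were 22.2% and 19.2%. *CXCR4* was not analysed here.

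PIM proteins depend on HSP90, which protects them from degradation, and on PP2A, which favors it. Of 9 tested genes of this kind and of the cap-binding complex, 0 passed, with 1 at an unadjusted p-value under 0.05 and 0 called by DESeq2. The median was 0.17. The chaperone genes *HSP90AB1* and *HSP90AA1* had log2-fold changes of 0.17 and 0.62 and the scaffold gene *EIF4G1* of −0.52 (adjusted p = 0.853, 0.405, and 0.361 by the edgeR test). *STUB1* was not analysed here.

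*PIM1* mRNA is known to be short-lived through AU-rich elements in its 3′ untranslated region. The longest annotated 3′ untranslated region held 5 ATTTA pentamers in 1337 bases for *PIM1* (3.74 per kb), 2 in 949 bases for *PIM2* (2.11 per kb), and 4 in 945 bases for *PIM3* (4.23 per kb). The median over 11059 genes was 1.57 per kb, and 13.95%, 38.9%, and 9.71% of genes had at least as many per kb as *PIM1*, *PIM2*, and *PIM3*. The nonamer TTATTTATT was present 3 times in *PIM1*, in neither of the others, and in 10.1% of genes. The 30 bases richest in pentamers, read from the transcripts of GENCODE on GRCh38, are shown with pentamers in capitals to compare the genes.
PIM1: ttatgtATTTATTTATTTATTTAtttggtt
PIM2: cctgcctggattATTTAaaaagccatgtgt
PIM3: ggggctATTTAttgtttaATTTAtttgttg

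Within the 30 bases shown, the pentamers of *PIM1* overlap in a run of 4, while *PIM2* has a single one and *PIM3* has 2 apart. For *PIM2*, 48 windows tie for the most pentamers, so the stretch shown is not unique. *PIM1*, with the densest run, had the smallest log2-fold change of the family, and *PIM3*, with the most pentamers per kb, had the largest. Among 8 tested genes for proteins that bind such elements, 0 passed, with 1 at an unadjusted p-value under 0.05 and 1 called by DESeq2, both times *ZFP36L1*, named after its value was seen, which encodes a protein that promotes decay. It was at 25.9 and 17.9 CPM in the control and at 54.9, 76.2, and 40.7 CPM in the knockout pools, with a log2-fold change of 1.38 (SE 0.37, adjusted p = 0.0629 by the edgeR test). The median of the list was 0.06. *HNRNPD*, the AUF1 gene, *KHSRP*, another decay factor gene, and *TIAL1* had log2-fold changes of −0.68, −0.52, and 0.04 (adjusted p = 0.226, 0.495, and 0.964).

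Of 18 tested genes of the parallel AKT, mTOR, and S6 kinase pathway, 1 passed, with 3 at an unadjusted p-value under 0.05 and 1 called by DESeq2. *MLST8*, a subunit gene of both mTOR complexes, had 2 counts in each control pool, under the floor of 3 counts, and was at 8.69, 6.86, and 9.05 CPM in the knockout pools. It passed the filter on low counts only through the knockout pools, where it is high, so that its call is no support for the list, and it had no value under a filter of at least 10 counts in every library. Summed over pools, 157 knockout counts stood against 4 control counts, a depth-corrected ratio of 13.6 with an exact 95% interval of 5.19 to 50.4 for counting error. The adjusted p was 0.0131 by the edgeR test and 0.0591 without sgMTSS1_1, the highest of a range that began at 0.000564, and the gene overlaps *BRICD5* on the opposite strand. The median of the list was −0.14, with 5 positive and 13 negative values. *AKT2*, *RPS6KA1*, and *EIF4EBP2*, its most abundant other members, which encode an AKT isoform, a ribosomal S6 kinase, and an inhibitor of eIF4E, had log2-fold changes of 0.15, −0.09, and 0.51 (adjusted p = 0.908, 0.903, and 0.360).

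The PIM kinases belong to the CAMK group of kinases. Of 58 other members of this group, 51 were matched and 38 were tested. None of the 38 passed, with 7 at an unadjusted p-value under 0.05 and 2 called by DESeq2, *TRIB3* (log2-fold change 1.34) and *TRIO* (−1.01), which are named after their values were seen. Their median was −0.09 and their range −1.07 to 2.48. The upper end was *CAMK1*, with 51 knockout against 3 control counts. *MAPKAPK2*, a kinase gene of the p38 pathway, *CHEK1*, the checkpoint kinase gene, and *PRKD3*, a protein kinase D gene, had log2-fold changes of 0.12, −0.34, and −0.19 (adjusted p = 0.880, 0.497, and 0.736 by the edgeR test).

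**Figure D4:**
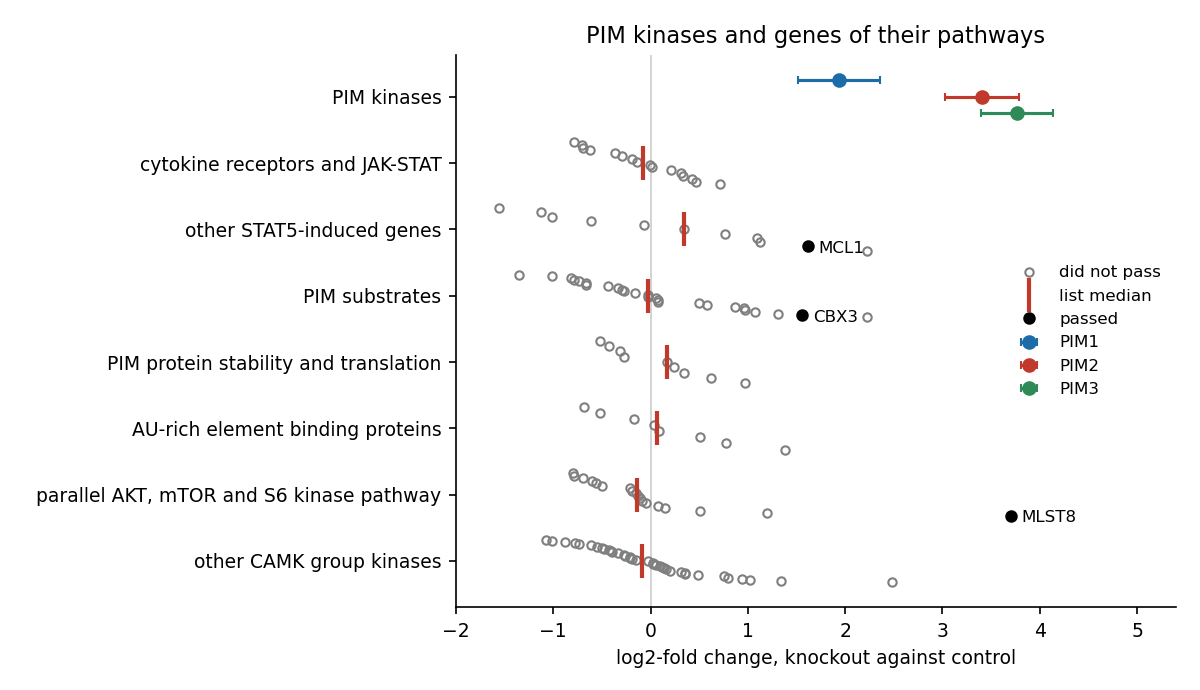
Log2-fold change, knockout against control, of the PIM genes (with standard errors) and of the tested members of 7 lists. Filled black points passed both criteria, open points did not, and red bars are list medians, which lie between −0.14 and 0.34.

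Finally, the genes around each PIM gene were compared with it, to describe whether the change extended along the chromosome. Of 49 genes in the table with any part within 250 kb of a PIM gene, 30 were tested and 0 passed, with 5 at an unadjusted p-value under 0.05 and 2 called by DESeq2. Every knockout pool was above both control pools for 6 of the 30 genes and below for 8, beside 22.2% and 19.2% of all tested genes, and the counts of 5 and 2 stand beside 23.3% and 9.33%. Distances are from start to start, positive in the direction of transcription of the PIM gene.

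Around *PIM2*, 16 genes were tested, with a median log2-fold change of −0.56. *SLC35A2*, a UDP-galactose transporter gene, starts 7.1 kb downstream of the *PIM2* start and is the closest. It was at 6.88 and 6.85 CPM in the control and at 25.6, 11.6, and 19.5 CPM in the knockout pools, each above both control pools, with a log2-fold change of 1.46 (SE 0.43, adjusted p = 0.0840 by the edgeR test). *TIMM17B*, a mitochondrial import gene at 20.9 kb, had the opposite sign, with 32.8 and 28.6 CPM in the control and 13.1, 13.2, and 15.8 CPM in the knockout pools (log2-fold change −1.13, adjusted p = 0.0636). DESeq2 called both *SLC35A2* and *TIMM17B*, and both overlap *PQBP1*, which had a log2-fold change of −0.16. *GPKOW* at −204.7 kb (1.3) and *WDR45* at −182.1 kb (1.07) had positive values. The other 11 were at or below −0.10, namely *MAGIX* (−0.10), *TFE3* (−0.32), *OTUD5* (−0.36), *GATA1*, the erythroid transcription factor gene at 132.5 kb (−0.56), *GRIPAP1* (−0.57), *HDAC6* (−0.68), *WAS* (−0.69), *ACAA2P1* (−0.74), *SUV39H1* (−0.82), *PRAF2* (−1.18), and *GLOD5* (−1.29). For *OTUD5*, *GRIPAP1*, and *HDAC6*, every knockout pool lay between the control pools. Control pools 1 and 2 were at 47.5 and 182, 47.8 and 154, and 30.6 and 129 CPM for these genes.

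Around *PIM3*, 8 genes were tested, with a median of 0.45. The closest, *CRELD2*, a gene of the endoplasmic reticulum stress response, starts 42.6 kb upstream and had a log2-fold change of 0.75 (SE 0.33, adjusted p = 0.201 by the edgeR test), with 23.8 and 19.4 CPM in the control and 35.3, 29.4, and 44.4 CPM in the knockout pools. *MOV10L1* (0.86), *MLC1* (0.65), *TRABD* (0.64), and *SELENOO* (0.26) were positive, and *ZBED4* (−0.51), *BRD1* (−0.58), and *PANX2* (−0.69) negative. Around *PIM1*, 6 genes were tested, with a median of −0.07. *TBC1D22B* at 87.6 kb (−0.42), *TMEM217* at 88.0 kb (−0.53), *RNF8* (0.36), *MTCH1* (−0.27), and *C6orf89* (0.13) did not pass. The pseudogene *COX6A1P2*, with 3 and 0 control counts against 36, 4, and 11 in the knockout, had a log2-fold change of 2.38 with a standard error of 1.16.

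**Figure D5:**
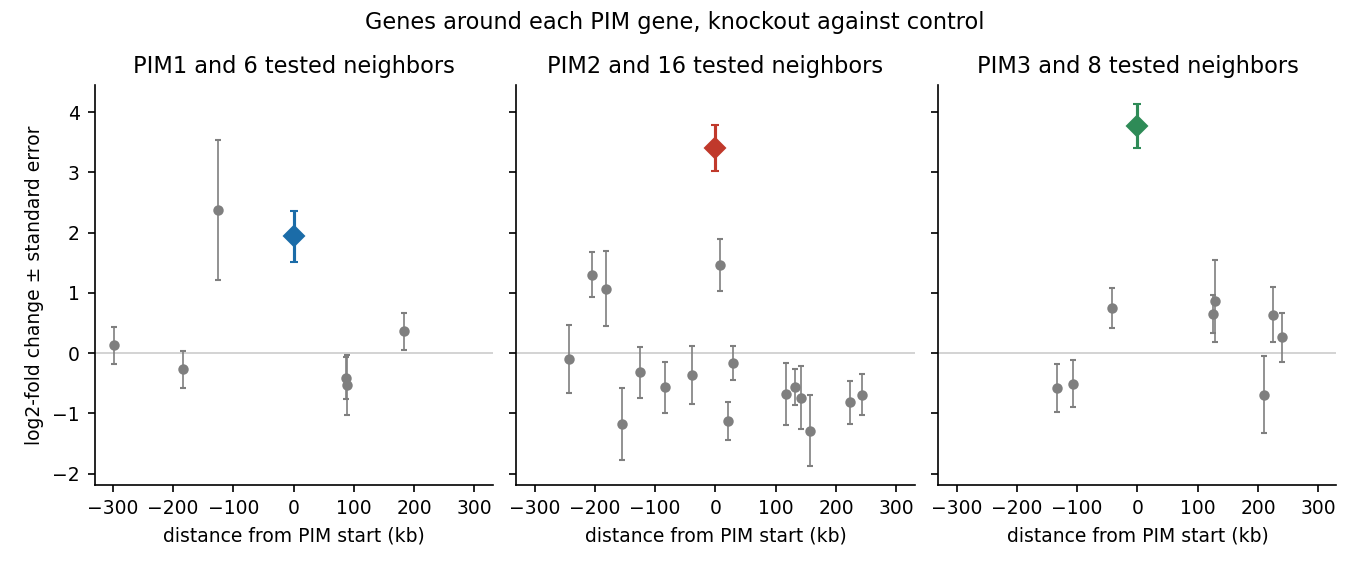
Log2-fold change with standard error of the tested genes around each PIM gene against the distance of their start from the PIM start (kb, positive in the direction of transcription). Diamonds are the PIM genes. None of the neighbors passed the edgeR test. Their values run from −0.53 to 2.38 around *PIM1*, from −1.29 to 1.46 around *PIM2*, and from −0.69 to 0.86 around *PIM3*.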

How the data were processed

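RNA-seq was performed on 5 pools of TF-1 clones, each described by its sample label. Libraries were made with a QuantSeq 3′ kit. After adapter removal (BBDuk), the authors mapped reads to GRCh38 with HISAT2 2.1.0, kept uniquely mapped ones (SAMtools 1.10), and deposited raw counts per Ensembl gene. The counting program, annotation release, and strand setting are not given in the sources used here.

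Counts were analysed with edgeR 4.0.16 in R 4.3.3 (filterByExpr with a minimum count of 10, TMM, quasi-likelihood test, condition alone, all 5 libraries). Benjamini-Hochberg adjustment was over 14391 genes. CPM used TMM factors, and 3 counts corresponded to 0.389 to 0.938 CPM. The test was tested on simulated data, where it missed a part of the changed genes, and the share it was required to find was lowered after the first outcome. A gene that did not pass is thus not shown to be unchanged. Annotation came from GENCODE 44 (a symbol for 27211 genes), and promoters from RefSeq GRCh38.p14, in which all 3 PIM genes were matched. DESeq2 1.42.0, other normalizations and filters, thinning, offsets for GC content and length (mgcv 1.9.3), a replicate block, and leaving out each library were alternatives.

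The PIM genes, lists, and tests were chosen with earlier results of these data known. Named were the PIM genes, *MTSS1*, list members that passed and the 3 most abundant that did not, the GM-CSF receptor, *JAK2*, and *STAT5* genes, all tested neighbors, and the 3 genes most like each PIM gene. Promoter and 3′ untranslated region motifs were added after the data had been seen. The authors grew each pool overnight before RNA extraction. No repeat culture of the same pool is described, so p-values measure the spread between these pools.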

Additional observations from a re-analysis of the deposited data

How the results depend on the processing

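The log2-fold change of *PIM1* ranged from 1.59 to 2.44, that of *PIM2* from 3.15 to 3.76, and that of *PIM3* from 3.63 to 3.92 over 15 settings. With each library left out in turn these ranges were 1.59 to 2.44, 3.15 to 3.76, and 3.68 to 3.92. That no PIM value changed sign follows from every knockout pool lying above both control pools, and is no support. The value of *PIM2* moved by more than the spread between pools only without control pool 2 (3.76). The number of differentially expressed genes rose from 745 to 1343 with DESeq2 and to 1374 with no filter on low counts, and ranged from 111 to 1349 with each library left out (111 without sgMTSS1_1, 191 without sgMTSS1_3, 347 without sgMTSS1_2, and 1349 without control pool 1). The number of list members that passed was 3, but 9 with DESeq2, 6 with no filter, and 0 to 11 with each library left out (0 without sgMTSS1_1, 1 without sgMTSS1_3, 11 without control pool 1). The number of neighbors that passed was 0, but 2 with DESeq2 (*SLC35A2* and *TIMM17B*), 2 with no filter, 1 with offsets for GC content and length (*TIMM17B*), and 0 to 2 with each library left out (2 without control pool 1). The causes were not tested.

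Pool numbers 1 and 2 occur in both groups. With the number as a replicate block, 1094 genes and 5 list members passed (758 and 3 with the block and GC and length offsets), 0 neighbors passed, and *PIM1*, *PIM2*, and *PIM3* were at 1.99, 3.35, and 3.63. The pool sgMTSS1_3 has no control pool of its number and adds nothing to this comparison. These values therefore rest on the pools of numbers 1 and 2 alone. The block leaves almost no spread between pools to estimate from. The numbers that passed thus lean on spreads drawn from other genes, and more calls do not make this a better-controlled fit. Deviations from the group means correlated across genes with r = 0.196 for the pools of number 1 and 0.108 for those of number 2, and control pool 2 correlated better with sgMTSS1_3 (0.135). The deviations of the 2 control pools are equal with opposite signs, so these correlations are not independent of each other. Nothing states that pools of a number were handled together, so they share only a number.

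Only 2 control pools were available, at a lower depth than the knockout pools, and genes near 3 counts, such as *MLST8*, *SOCS1*, and *CAMK1*, were measured with little precision.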
